A study of Mus musculus with 9 samples.

Results

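Expression of 9 genes of the interleukin-6 (IL-6) cytokine family and its STAT3 pathway was examined in MLO-Y4 cells, an osteocyte-like line of the mouse. The genes were selected by symbol from the 56748 genes of the count table. They were the cytokine genes Il6, Il11 and Lif, the receptor genes Il6ra, Il6st, Osmr and Lifr, the transcription factor gene Stat3 and the feedback inhibitor gene Socs3. All 9 passed the filter on low counts, which left 13812 genes for testing. RNA was sequenced from 9 libraries in 3 groups of 3. In the control group, MLO-Y4 cells shared a transwell with primary chondrocytes that had received no stimulation. In the 24 h and 48 h groups the chondrocytes had first been exposed to interleukin-1β (10 ng/mL) over 6 h, and were then co-cultured with MLO-Y4 cells for 24 h or 48 h. The chondrocytes came from the knee cartilage of C57BL/6J mice 5 to 6 days old, sat on an insert above the MLO-Y4 cells and were washed before co-culture.

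No source says how long the control cells were cultured, so stimulation and time cannot be told apart in a difference from control. Nor can they in a difference between 24 h and 48 h, as no unstimulated group is labelled for each time. MLO-Y4 is a single cell line grown on collagen. The labels of the 48 h samples count the line's name upward to MLO-Y5, MLO-Y6 and MLO-Y7, whereas the protocols name MLO-Y4 throughout. Nothing in the labels says that the libraries of a group came from separate cultures, so p-values measure the spread between these samples, which may be technical. Among the osteocyte markers, Mepe and Fgf23 had no count in any library, Sost had at most 1 and Dmp1 at most 6, while Phex, Pdpn and Gja1 were expressed. Of the chondrocyte markers Acan, Col9a1, Col9a2, Matn1 and Cnmd had no count in any library, and Col2a1 had at most 7, while Prg4 and Sox9 were expressed. The leukocyte markers Adgre1, Itgam and Tyrobp were also at 0 throughout, while Cd14, Csf1r and Cd68 were detected. Total counts ranged from 12250628 to 18515456 per library.

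Nearly all cytokines of this family signal through gp130, a shared receptor subunit encoded by Il6st. IL-6 and interleukin-11 first bind their own alpha receptors, whereas leukaemia inhibitory factor (LIF) uses a pair of gp130 and the LIF receptor, and oncostatin M also uses gp130 with the OSM receptor. Janus kinases on these receptors phosphorylate STAT3, which moves to the nucleus and activates genes that include Socs3, whose product binds gp130 and the kinases and limits the signal. In bone the family acts on osteoblasts, osteocytes and, through RANKL, on osteoclast formation.

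The 3 cytokine genes rose together at 24 h, to 4.81 times the control level for Il6, 1.88 times for Il11 and 2.75 times for Lif. Il6 remained above control at 48 h, whereas Il11 and Lif fell from 24 h to 48 h. Of the receptor genes, Il6st and Osmr rose at 24 h, to 1.18 and 1.21 times the control level. At 24 h the Il6st libraries overlapped those of control, and its change failed the test when some single libraries were left out. All 4 receptor genes were higher at 48 h, from 1.54 times control for Il6ra to 2.34 times for Osmr. Stat3 and Socs3 rose at both times, and reached 1.53 and 1.92 times their control levels at 48 h. A gene is called different where the adjusted p of edgeR's quasi-likelihood test is under 0.05. At 24 h, 7 of the 9 genes were called higher than control and 0 lower, against 3.25% higher and 2.90% lower among all tested genes. At 48 h, 7 were called higher and 1 lower, against 22.0% and 24.4% of all tested genes. Between 24 h and 48 h, 6 rose and 2 fell, where 23.7% of tested genes rose and 25.4% fell. The joint test of the 3 groups called all 9 genes and 51.9% of tested genes.

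The libraries of the groups compared did not overlap for 6 of the 9 genes at 24 h, for 9 at 48 h and for 8 between 24 h and 48 h. Over all tested genes this held for 21.5%, 53.1% and 59.4%. The median log2 fold change of the 9 genes was 0.27 at 24 h, 0.65 at 48 h and 0.37 between the times, while that of all tested genes lay between -0.0042 and -0.0017. Both comparisons with control use the same 3 control libraries, so they are not independent of each other. In RNA from whole wells, a change in the number of expressing cells and a change in RNA per cell cannot be told apart.

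**Figure D1:**
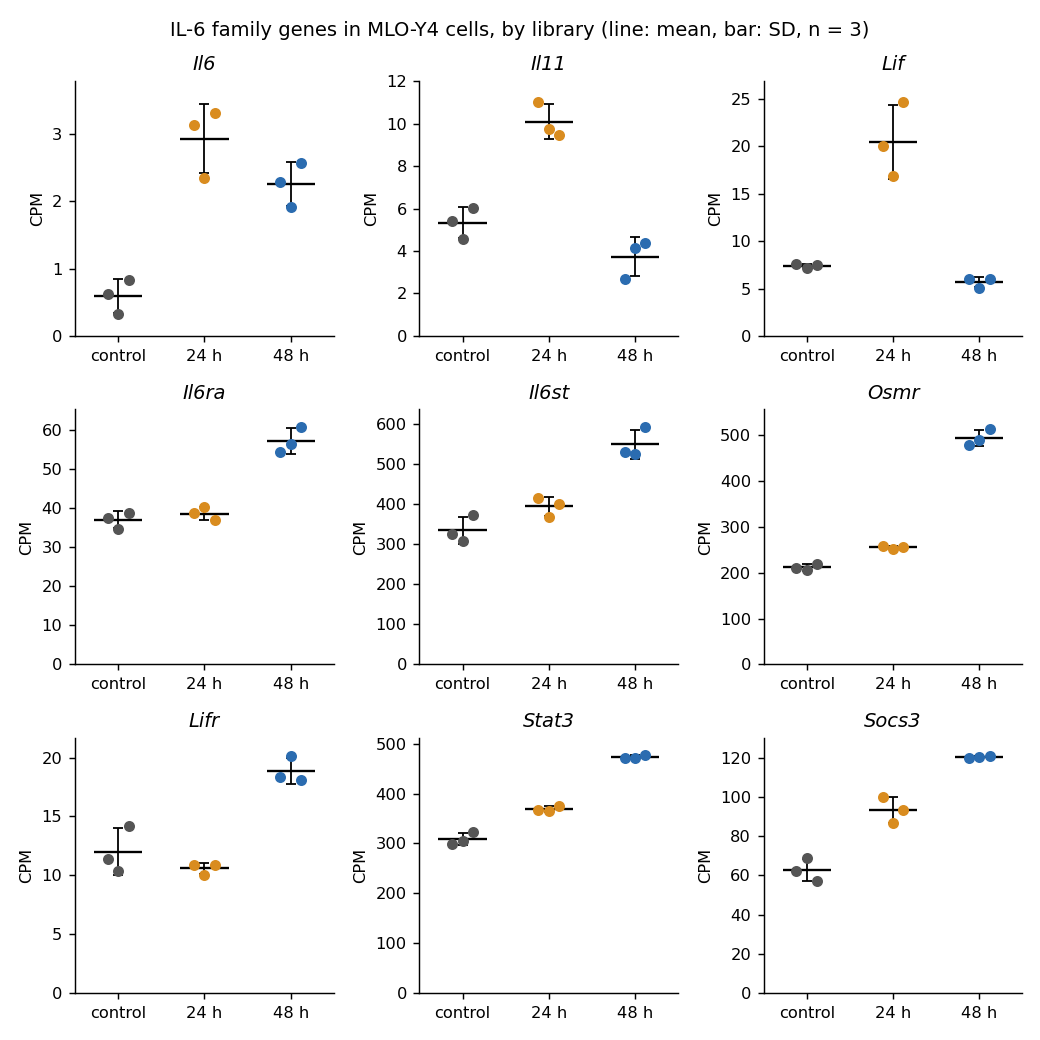
Expression of each of the 9 genes in CPM (counts relative to the scaled library total, vertical axis from 0) in the control, 24 h and 48 h libraries, with 1 point per library, the group mean as a line and the SD as a bar (n = 3). Il6, Il11 and Lif have all 24 h points above all control points, and Lif then falls from a mean of 20.5 to 5.69 CPM, while Osmr climbs from 211.5 to 494 CPM between control and 48 h.

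The promoters of the cytokine genes are shown because these 3 genes rose together at 24 h. Each line gives the 250 bases before the start site of the Ensembl canonical transcript in GENCODE, 5′ to 3′ on the strand of the gene, in build GRCm39. Capitals mark matches to the AP-1 motif TGANTCA or to a 10-base NF-kB motif with 1 free base, which in Il6 read GGGATTTTCC. These are 2 of the 4 motifs searched on both strands. The Il6 window is chr5:30217862-30218111 on the plus strand, the Il11 window is chr7:4781141-4781390 on the minus strand, and the Lif window is chr11:4207307-4207556 on the plus strand. The Il11 window lies within the annotated span of that gene (chr7:4775372-4785858), which reaches further upstream than the start site used.
Il6: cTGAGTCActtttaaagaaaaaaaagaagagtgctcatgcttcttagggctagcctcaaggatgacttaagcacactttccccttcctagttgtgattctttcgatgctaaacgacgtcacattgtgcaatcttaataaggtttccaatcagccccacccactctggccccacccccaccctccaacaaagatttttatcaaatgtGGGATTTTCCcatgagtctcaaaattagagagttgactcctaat
Il11: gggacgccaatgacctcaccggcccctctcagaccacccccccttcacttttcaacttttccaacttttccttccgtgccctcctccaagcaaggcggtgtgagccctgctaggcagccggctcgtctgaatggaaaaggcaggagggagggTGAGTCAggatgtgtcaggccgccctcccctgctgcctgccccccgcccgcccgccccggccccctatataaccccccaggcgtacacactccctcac
Lif: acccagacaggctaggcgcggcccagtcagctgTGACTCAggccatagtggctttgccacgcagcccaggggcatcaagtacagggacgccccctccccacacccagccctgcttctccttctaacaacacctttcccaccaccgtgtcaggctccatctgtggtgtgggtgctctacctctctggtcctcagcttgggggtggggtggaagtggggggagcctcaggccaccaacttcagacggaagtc

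The Il6 window holds an AP-1 match from base -249 to -243 and an NF-kB match from -44 to -35, counted back from the start site. An AP-1 match lies at -98 to -92 in Il11 and at -217 to -211 in Lif. AP-1 matches were present in 6.17% of 21770 windows of protein-coding genes and in 3 of the 9 genes, which are the 3 cytokine genes. The NF-kB match was found in 0.423% of windows, and Il6 was the 1 gene of the 9 that held it. The STAT motif TTCNNNGAA occurred in 7.70% of windows and in Socs3 among the 9, at -223 to -215. The cyclic AMP response element TGACGTCA occurred in 1.69% of windows and in Stat3 among the 9. None of the marked matches overlapped another. The windows of Il6st, Il6ra, Osmr and Lifr held none of these letters. Annotated exons cover 216 of the 250 bases in Il6ra, 173 in Socs3 and 23 in Stat3. The start sites of Lifr (7158981) and Socs3 (117860123) lie inside gene spans that reach further upstream, as for Il11. A match describes the sequence and is not evidence of binding.

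Il6 (ENSMUSG00000025746, chr5:30218112-30224979) encodes the cytokine that gives the family its name. It was the lowest of the 9 genes in control cells, with 10, 4 and 11 counts, or 0.628, 0.327 and 0.828 CPM. The 24 h libraries held 3.14, 2.34 and 3.32 CPM from 47, 36 and 47 counts, and the 48 h libraries 2.29, 1.92 and 2.56 CPM from 40, 32 and 48 counts. Every library of either co-culture time lay above every control library, and the 24 h and 48 h libraries overlapped. The log2 fold change was 2.27 (SE 0.32, edgeR adjusted p = 0.000128) at 24 h, ranked 17 of 13812 by absolute size. At 48 h it was 1.90 (SE 0.33, edgeR adjusted p = 0.000107). The change from 24 h to 48 h was -0.37 (SE 0.25, edgeR adjusted p = 0.229), with a 95% interval from -0.89 to 0.15. These values rest on few reads, and the calls against control held in all 15 alternatives, with adjusted p at most 0.00165 at 24 h and 0.000957 at 48 h.

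Il11 (ENSMUSG00000004371, chr7:4775372-4785858) encodes interleukin-11, a gp130 cytokine with known roles in bone formation and osteoclast development. Control libraries held 5.40, 4.58 and 6.02 CPM, the 24 h libraries 11.0, 9.77 and 9.45 CPM and the 48 h libraries 2.69, 4.14 and 4.38 CPM. The groups did not overlap in any comparison, with 24 h highest and 48 h lowest. At 24 h the log2 fold change was 0.91 (SE 0.17, edgeR adjusted p = 0.00175). From 24 h to 48 h it was -1.43 (SE 0.17, edgeR adjusted p = 1.5e-06). Against control, the 48 h level had a log2 fold change of -0.52 (SE 0.19, edgeR adjusted p = 0.0292). That call was lost when a single library was left out, with an adjusted p of 0.0777 without control replicate 1, 0.106 without control replicate 3 and 0.147 without 48 h replicate 1, and with only the 2 groups in the fit (0.0507). Its adjusted p ranged from 0.0169 to 0.147 over all alternatives.

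Lif (ENSMUSG00000034394, chr11:4207557-4222514) encodes leukaemia inhibitory factor, which acts on osteoblasts and osteoclasts. It measured 7.60, 7.20 and 7.45 CPM in control, 20.0, 16.9 and 24.6 CPM at 24 h and 6.06, 5.03 and 5.98 CPM at 48 h. All 24 h libraries stood above the other 6, and all 48 h libraries lay below the control libraries. The increase at 24 h had a log2 fold change of 1.46 (SE 0.14, edgeR adjusted p = 1.02e-06) and the decrease from 24 h to 48 h one of -1.84 (SE 0.14, edgeR adjusted p = 3.2e-09). Against control the 48 h value was -0.38 (SE 0.15, edgeR adjusted p = 0.0508), which did not pass the test. Under the 15 alternatives that adjusted p lay between 0.0273 and 0.167. It fell below the threshold in 5 of them, including without 24 h replicate 2 (0.0366), without 24 h replicate 3 (0.0339), with no filter on low counts (0.0381) and with only the 2 groups fitted (0.0405).

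**Figure D2:**
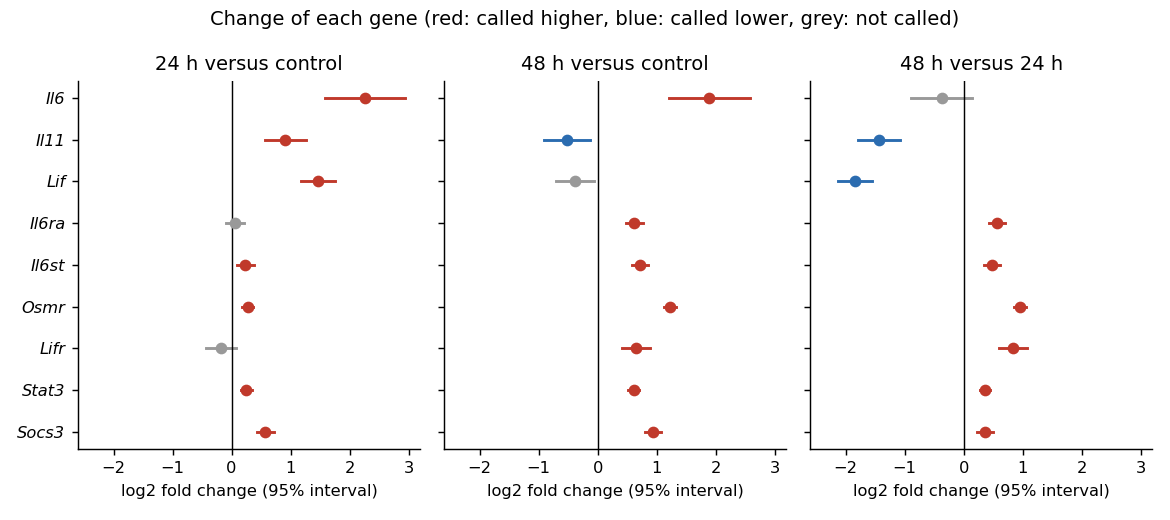
Log2 fold change (horizontal axis) with its 95% interval for each of the 9 genes in the 3 comparisons, in red where called higher, blue where called lower and grey where not called. At 24 h the cytokine genes have the largest values of the 9, up to 2.27 for Il6, and from 24 h to 48 h Il11 and Lif lie at -1.43 and -1.84 while the receptor genes, Stat3 and Socs3 lie to the right of 0.

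Il6st (ENSMUSG00000021756, chr13:112600604-112646620) encodes gp130, the subunit shared by most of the family. Its level was 326, 308 and 373 CPM in control, 416, 369 and 400.1 CPM at 24 h and 532, 527 and 592 CPM at 48 h. The highest control library stood above the lowest 24 h library, and all 48 h libraries exceeded the other 6. The log2 fold change was 0.71 (SE 0.07, edgeR adjusted p = 6.72e-08) at 48 h and 0.48 (SE 0.07, edgeR adjusted p = 7.46e-06) from 24 h to 48 h. The 24 h value of 0.24 (SE 0.07, edgeR adjusted p = 0.0398) was called, but the call was lost without any 1 of 6 libraries. The adjusted p was 0.153 without control replicate 1, 0.119 without control replicate 2, 0.188 without 24 h replicate 1 and 0.139 without 24 h replicate 3. It was 0.0555 without 48 h replicate 1 and 0.0600 without 48 h replicate 2. These 48 h libraries are in neither group compared, and enter through the shared filter, scaling, spread and adjustment. It was also lost with library size alone as the scaling (0.0582) and with only the 2 groups fitted (0.0758), and the adjusted p ranged from 4.66e-05 to 0.188 over all alternatives.

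Osmr (ENSMUSG00000022146, chr15:6843058-6904450), the subunit that pairs with gp130 to bind oncostatin M, had the largest increase of the 4 receptor genes at 48 h. Its 24 h value was also the largest, but its 95% interval (0.17 to 0.37) overlapped that of Il6st (0.10 to 0.37). Control libraries held 210.9, 204.9 and 218.8 CPM, the 24 h libraries 257, 253 and 256 CPM and the 48 h libraries 480, 489 and 514 CPM. The 3 groups stood apart in that order with no overlap. The log2 fold change was 0.27 (SE 0.05, edgeR adjusted p = 0.000865) at 24 h, 1.22 (SE 0.05, edgeR adjusted p = 7.23e-13) at 48 h and 0.95 (SE 0.05, edgeR adjusted p = 1.11e-11) between the times. The 48 h level was thus 2.34 times the control level. Osm, the gene of its ligand, had at most 1 count in any library, a gene singled out after its values were seen.

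Lifr (ENSMUSG00000054263, chr15:7120095-7226970), the LIF receptor, lies on the same chromosome as Osmr, 216 kb away with no protein-coding gene between them. Its libraries measured 11.4, 10.4 and 14.2 CPM in control, 10.9, 10.0 and 10.9 CPM at 24 h and 18.4, 20.1 and 18.1 CPM at 48 h. Control and 24 h overlapped, and the 48 h libraries stood above both. No change was called at 24 h, where the log2 fold change was -0.18 (SE 0.12, edgeR adjusted p = 0.452) with a 95% interval from -0.43 to 0.07. At 48 h it was 0.65 (SE 0.11, edgeR adjusted p = 9.24e-05), and from 24 h to 48 h 0.83 (SE 0.11, edgeR adjusted p = 5.54e-06). Lifr rose in the interval in which Lif fell.

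Il6ra (ENSMUSG00000027947, chr3:89771366-89820503) encodes the alpha receptor that binds IL-6 itself, in a membrane and a shed form. Its level was 37.6, 34.7 and 38.9 CPM in control, 38.7, 40.3 and 36.9 CPM at 24 h and 54.3, 56.3 and 60.9 CPM at 48 h. As for Lifr, control and 24 h overlapped and 48 h stood apart. The 24 h log2 fold change of 0.06 (SE 0.07, edgeR adjusted p = 0.724) had a 95% interval from -0.09 to 0.21. It was 0.62 (SE 0.07, edgeR adjusted p = 6.1e-07) at 48 h and 0.57 (SE 0.07, edgeR adjusted p = 1.61e-06) between the times. Gm42809, a long non-coding RNA gene, overlaps Il6ra on the opposite strand, but had at most 14 counts in a library.

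Stat3 (ENSMUSG00000004040, chr11:100775924-100830366) encodes the main transcription factor downstream of gp130. Its libraries held 299, 306 and 323 CPM in control, 367, 364 and 375 CPM at 24 h and 472, 472 and 478 CPM at 48 h. The groups followed each other without overlap, and the 48 h libraries spanned the narrowest range. Stat3 rose by a log2 fold change of 0.25 (SE 0.04, edgeR adjusted p = 0.001) at 24 h, 0.62 (SE 0.04, edgeR adjusted p = 2.3e-09) at 48 h and 0.36 (SE 0.04, edgeR adjusted p = 1.59e-06) between the times. Stat5a, on the opposite strand, had up to 1615 counts in a library over its whole length. It overlaps Stat3 only at chr11:100775924-100775995, a small part of either gene. The libraries were directional, but the sources do not say whether reads were counted by strand. The assignment of reads in that short stretch is therefore uncertain. These are levels of mRNA, and phosphorylation of STAT3 was not measured.

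Socs3 (ENSMUSG00000053113, chr11:117856905-117860873) encodes the inhibitor that closes the feedback loop on gp130. Control libraries held 62.3, 68.9 and 57.3 CPM, the 24 h libraries 100.3, 86.9 and 93.2 CPM and the 48 h libraries 120.0, 120.3 and 120.9 CPM. No library of one group reached the range of another. The log2 fold change was 0.57 (SE 0.07, edgeR adjusted p = 2.1e-05) at 24 h, 0.94 (SE 0.07, edgeR adjusted p = 2.65e-09) at 48 h and 0.37 (SE 0.07, edgeR adjusted p = 0.000142) from 24 h to 48 h. Socs3 thus continued upward in the interval in which Il11 and Lif fell.

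Levels of different genes were compared as CPM per kb of the gene length in the deposited table. In control cells the order ran from Stat3 (32.5 ± 1.28 CPM per kb, SD, n = 3) through Il6st (30.2 ± 3.01), Socs3 (21.7 ± 2.00) and Osmr (17.5 ± 0.575) to Il6ra (4.29 ± 0.251), Il11 (2.56 ± 0.347), Lif (1.70 ± 0.0466), Lifr (1.11 ± 0.184) and Il6 (0.245 ± 0.104). The libraries of Stat3 and Il6st overlapped, and all other neighbours in this order stood apart. Among the receptors the order Il6st, Osmr, Il6ra, Lifr held in all 3 groups, with no overlap between neighbours. At 24 h Il11 (4.84 ± 0.397 CPM per kb), Lif (4.71 ± 0.897) and Il6ra (4.47 ± 0.197) overlapped, and Il6 (1.21 ± 0.213) overlapped Lifr (0.983 ± 0.0454). At 48 h Osmr (40.8 ± 1.47 CPM per kb) had come level with Socs3 (41.6 ± 0.153), and their libraries overlapped. Il11 (1.79 ± 0.440) then overlapped Lifr (1.75 ± 0.102), and the Il11 libraries also overlapped those of Lif (1.31 ± 0.131). Il6 (0.929 ± 0.133) stood apart below all of them.

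**Figure D3:**
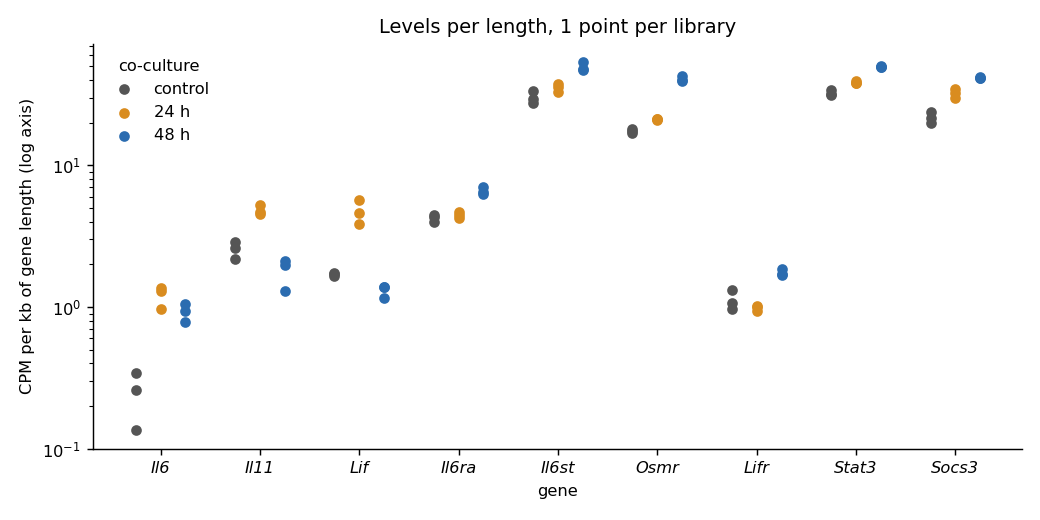
Level of each of the 9 genes in CPM per kb of gene length (vertical log axis), with 1 point per library, in control (grey), 24 h (orange) and 48 h (blue). Stat3, Il6st, Socs3 and Osmr form the upper range, from 17.5 CPM per kb for Osmr in control to 49.7 for Stat3 at 48 h as group means, and the cytokine genes with Il6ra and Lifr lie below 8.

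Summed markers also moved at 48 h, together with the receptor genes, Stat3 and Socs3. The 12 osteocyte and osteoblast markers summed to between 3023 and 3191 CPM in control, 3088 and 3122 CPM at 24 h and 3891 and 3960 CPM at 48 h, of which Gja1 and Col1a1 made up most. Singly, 3 of the 8 tested rose and 4 fell at 48 h, with a median log2 fold change of 0.0014, and 1 rose and 1 fell at 24 h. The 13 chondrocyte markers summed to between 1683 and 1717 CPM in control, 1566 and 1650 CPM at 24 h and 2128 and 2217 CPM at 48 h, and 8, 7 and 7 of the 13 exceeded 3 counts in a library of these groups. Prg4, the gene of lubricin, held nearly all of that sum, with Sox9 next. Of 6 tested, 3 rose and 1 fell at 48 h (median 0.08), and 0 were called at 24 h with edgeR (median -0.30), where 2 had an unadjusted p under 0.05. The 8 macrophage and leukocyte markers summed to between 18.6 and 20.4 CPM in control, 24.1 and 26.3 CPM at 24 h and 20.9 and 24.2 CPM at 48 h, with 4 of the 8 above 3 counts. Of 3 tested, 1 rose and 1 fell at 24 h (median -0.18), and 1 rose at 48 h. Over all tested genes, 3.25% rose and 2.90% fell at 24 h, and 22.0% and 24.4% at 48 h. The part of these marker shifts in the changes of the 9 genes was not tested.

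Other genes of the pathway were read from 6 lists compiled by hand, with 67 genes reported here. Over all tested genes, 3.25% rose and 2.90% fell at 24 h, 22.0% and 24.4% at 48 h, and 23.7% and 25.4% between the times. Of 8 other ligand genes of the IL-6 family, 2 were tested. With edgeR 0 changed at 24 h and from 24 h to 48 h, and 1 fell at 48 h. DESeq2 also called 0 in both of the former, where 0 and 1 had an unadjusted edgeR p under 0.05. Clcf1, which encodes a gp130 cytokine, measured 63.9 ± 1.22 CPM in control and 54.7 ± 2.31 CPM at 48 h (SD, n = 3), and fell by 0.22 on the log2 scale (SE 0.06, edgeR adjusted p = 0.00526). Both tested genes were called at 48 h without control replicate 2. From 24 h to 48 h Clcf1 passed without 24 h replicate 2 (adjusted p = 0.0463). Ebi3 and Il31 had no count in any library.

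Of the 5 other receptor genes, 2 were tested, and neither was called against control at either time. Il11ra1, the alpha receptor for interleukin-11, rose by 0.23 on the log2 scale from 24 h to 48 h (SE 0.07, edgeR adjusted p = 0.0105). This call was lost without 24 h replicate 1 (adjusted p = 0.0654) or 48 h replicate 1 (0.0629), which left 0 genes of the list called, and its adjusted p ranged from 0.00373 to 0.0654. Without 24 h replicate 3 both tested genes of this list were called between the times. Cntfr and Il31ra had no count in any library. Of the proteases that shed cytokine receptors, Adam17 rose by 0.37 on the log2 scale at 48 h (SE 0.06, edgeR adjusted p = 3.39e-05), and the other one tested was not called in any comparison.

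Among 13 kinases, other STATs and adaptors, 12 were tested. At 24 h edgeR called 0 of them, against 3.25% higher and 2.90% lower among all tested genes. At 48 h 6 rose and 1 fell, against 22.0% and 24.4%, and between the times 6 rose and 1 fell, against 23.7% and 25.4%. DESeq2 called 0 at 24 h as well, and 0 had an unadjusted edgeR p under 0.05. Their median log2 fold change was 0.02 at 24 h and 0.14 at 48 h. Stat2, which acts in interferon signalling, went from 87.8 ± 5.17 CPM in control to 95.7 ± 4.79 at 24 h and 210 ± 5.97 at 48 h (SD, n = 3). The 48 h value was 1.26 on the log2 scale (SE 0.06, edgeR adjusted p = 7.81e-12). Jak3 rose by 0.91 (SE 0.10, edgeR adjusted p = 4.36e-07) and Jak2, a kinase that binds gp130, by 0.38 (SE 0.07, edgeR adjusted p = 0.000175) on the same scale. Ptpn11, the phosphatase and adaptor SHP2, was lower at 48 h than in control, by a log2 difference of -0.20 (SE 0.05, edgeR adjusted p = 0.0018). Stat4 had no count in any library.

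Socs3 was set beside 14 other negative regulators, of which 13 were tested. At 24 h 1 rose and 0 fell, against 3.25% and 2.90% of all tested genes. At 48 h 3 rose and 2 fell, against 22.0% and 24.4%, and between the times 4 rose and 3 fell, against 23.7% and 25.4%. Their median log2 fold change was 0.04 at 24 h and 0.05 at 48 h. Ptpn1, the tyrosine phosphatase PTP1B, rose at 24 h by 0.30 (SE 0.05, edgeR adjusted p = 0.00163) and at 48 h by 0.52 (SE 0.05, edgeR adjusted p = 2.9e-07) on the log2 scale. The inhibitor of activated STAT3 encoded by Pias3 rose at 48 h by 0.22 (SE 0.06, edgeR adjusted p = 0.00687). Pias1 rose by 0.18 (SE 0.07, edgeR adjusted p = 0.0454), a call lost without control replicate 1, control replicate 2 or any 1 of the 48 h replicates (adjusted p from 0.0716 to 0.120). Socs5 and Socs6, of the same family as Socs3, had log2 fold changes of -0.41 (SE 0.06, edgeR adjusted p = 1.96e-05) and -0.27 (SE 0.07, edgeR adjusted p = 0.00499) at 48 h. The Socs6 call was lost without control replicate 1 (adjusted p = 0.0553), which, with the loss of Pias1, left 3 genes of the list called at 48 h. From 24 h to 48 h Cish, a target of STAT5, rose by 0.94 (SE 0.28, edgeR adjusted p = 0.0101), and Socs7 changed by -0.26 (SE 0.08, edgeR adjusted p = 0.00833). Without control replicate 3, or with no filter on low counts, the list had 3 calls at 24 h.

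The list of known STAT3 target genes held 25 genes, of which 23 were tested. At 24 h 11 rose and 0 fell, against 3.25% and 2.90% of all tested genes. At 48 h 12 rose and 5 fell, against 22.0% and 24.4%, and between the times 8 rose and 7 fell, against 23.7% and 25.4%. The median log2 fold change was 0.29 at 24 h, 0.38 at 48 h and -0.05 between the times. Several of these genes, Saa3 and Lcn2 among them, are known to be induced by NF-kB as well, so the list is not specific to STAT3. Earlier results of these data were known when it was compiled.

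The largest value of this list at both times was that of Saa3. Saa3, which encodes a serum amyloid A protein, measured 1.70, 2.53 and 2.56 CPM in control, 107, 79.7 and 120 CPM at 24 h and 68.6, 79.3 and 67.6 CPM at 48 h. Saa3 rose by 5.51 (SE 0.18, edgeR adjusted p = 2.19e-13) on the log2 scale at 24 h and 5.01 (SE 0.18, edgeR adjusted p = 5.13e-13) at 48 h, and how reads matching several of the similar Saa genes were counted is not stated. Hp, the gene of haptoglobin, rose by 2.42 (SE 0.08, edgeR adjusted p = 2.19e-13) at 24 h. Lcn2, which encodes the iron-sequestering protein lipocalin 2, had 7 counts over the control libraries and 239 over the 24 h libraries. That is a ratio of 31.8 between the groups, with a 95% interval from 15.2 to 79.9 that covers counting error only. At 48 h its ratio was 22.2 (10.6 to 55.8). Steap4, which encodes a metalloreductase, had 5 counts over the control libraries, 35 over the 24 h libraries and 178 over the 48 h libraries, ratios of 6.52 (2.54 to 21.3) and 27.9 (11.7 to 86.9). At 24 h Steap4 was called (edgeR adjusted p = 0.0199), but not when control replicate 1 (0.101) or 24 h replicate 3 (0.123) was left out.

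From 24 h to 48 h, 15 of the 23 tested targets were called, 8 higher and 7 lower, against 23.7% and 25.4% of all tested genes. Lbp, the gene of the lipopolysaccharide-binding protein, was at 7.42 ± 0.462 CPM in control and 7.58 ± 0.580 at 24 h, then at 32.4 ± 2.89 at 48 h (SD, n = 3). It rose by 2.09 (SE 0.10, edgeR adjusted p = 1.25e-11) on the log2 scale between the times. Nnmt, the gene of nicotinamide N-methyltransferase, and Steap4 rose by 1.37 (SE 0.19, edgeR adjusted p = 8.91e-06) and 2.08 (SE 0.35, edgeR adjusted p = 6.98e-05) over the same time. Timp1, an inhibitor of matrix metalloproteinases, fell from 316 ± 11.6 CPM at 24 h to 113 ± 2.02 CPM at 48 h, below its control level of 215 ± 11.2 CPM (SD, n = 3). Against control at 48 h the log2 fold change was -0.93 (SE 0.05, edgeR adjusted p = 9.3e-11). Ccnd1, the cell cycle gene of cyclin D1, and Birc5, the mitotic gene of survivin, were also lower than control at 48 h, by log2 fold changes of -1.29 (SE 0.06, edgeR adjusted p = 3.71e-12) and -0.72 (SE 0.05, edgeR adjusted p = 5e-09).

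**Figure D4:**
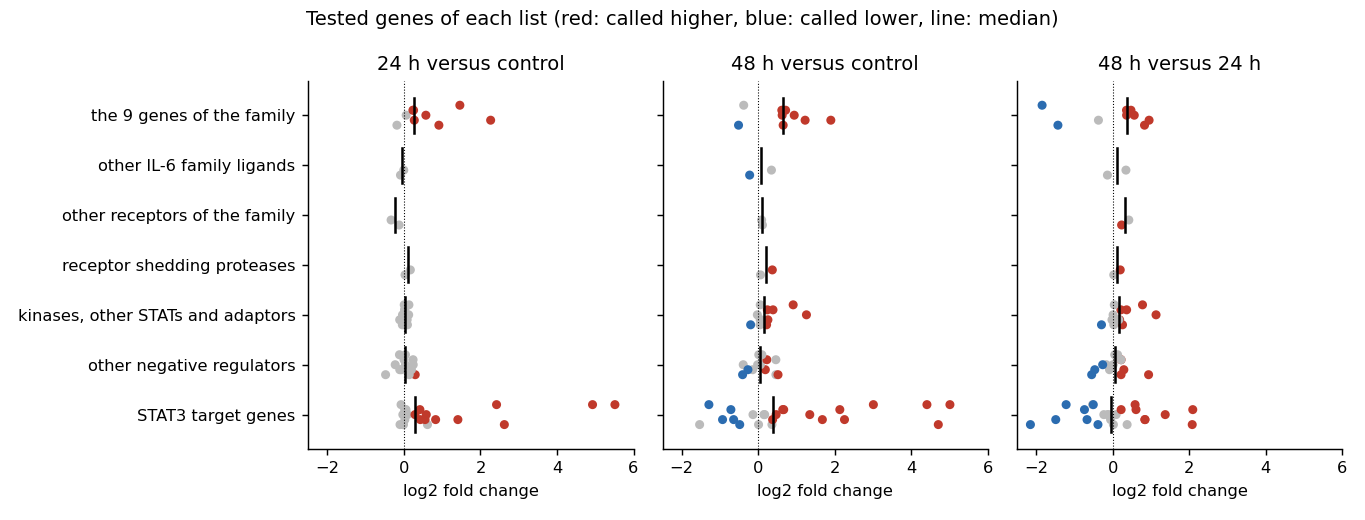
Log2 fold change (horizontal axis) of the tested genes of each list in the 3 comparisons, with 1 point per gene, red where called higher, blue where called lower and grey otherwise, and the median of each list as a line. The STAT3 target genes spread widest, up to 5.51 for Saa3 at 24 h, while the medians of the kinase and negative regulator lists at 24 h are 0.02 and 0.04.

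Genes with the most similar course were sought for Il6, Lif and Socs3 among 10513 tested genes with a mean of at least 5 CPM. Likeness was the distance between the pairs of log2 fold changes at 24 h and 48 h, from the 9 libraries. Nearest to Il6 were Mmp3, the gene of the matrix protease stromelysin-1, at a distance of 0.647, the receptor gene Gpr35 at 0.666 and the chemokine gene Cxcl5 at 0.765. Mmp3 changed by 2.64 at 24 h and by 2.42 at 48 h on the log2 scale. Nearest to Lif were Ereg, the gene of the growth factor epiregulin, at 0.410, Ramp3, which encodes a partner of the calcitonin receptor family, at 0.509, and the chemokine gene Cxcl3 at 0.626. Ereg had values of 1.07 at 24 h and -0.51 at 48 h. For Socs3 the nearest were the kinase gene Hipk2 at 0.0411, the transcription regulator gene Tsc22d1 at 0.0447 and S1pr1, a receptor gene for sphingosine-1-phosphate, at 0.0693. Hipk2 had values of 0.62 at 24 h and 0.94 at 48 h. Distances are not comparable between these genes, as fewer genes changed as much as Il6 than as much as Socs3. By absolute change Il6 ranked 17 at 24 h and 100 at 48 h, and Socs3 757 and 883.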

How the data were processed

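MLO-Y4 RNA was made into directional libraries and read from both ends as 150 base reads. Per the labels, the authors aligned reads to GRCm39 with HISAT2 and deposited raw counts per gene from featureCounts (2.06 in the submitters' processing notes). The sources differ on that version and on the sequencer, also name RSEM, and do not give the strand setting of the counting or the handling of reads with several matches.

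The deposited counts of all 9 libraries were fitted in edgeR 4.0.16 (R 4.3.3, limma 3.58.1) by quasi-likelihood on group alone, with 6 residual degrees of freedom. The filterByExpr function (minimum count 10) left 13812 genes with 99.9% of counts, scaling was by TMM, and p-values were adjusted by Benjamini-Hochberg over all of them. CPM are relative to the scaled library total. SEs follow from the F statistic. Promoter windows came from GENCODE and the genome of the same build. Those of Il6ra, Stat3 and Socs3 are not shown because exons of other transcripts overlap them.

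The 9 genes, the lists and the tests were chosen with earlier results of these data known. From each list, up to 3 called genes per direction and comparison with the largest change were named, if 1 of the groups compared averaged 1 CPM or more. Genes at 0 throughout were named as well. Some genes first put on the lists are not reported here, and list counts leave them out. The 3 genes nearest in pattern to Il6, Lif and Socs3 were named. Alternatives were DESeq2 1.42.0, its size factors, library size alone, no filter, the 2 groups alone, a replicate block and each library left out.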

Additional observations from a re-analysis of the deposited data

Results flagged for a closer look

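The level at 48 h differed from that at 24 h, by edgeR's test of these groups, for 8 of the 9 genes and for 21 named list genes. Over all tested genes, 23.7% rose and 25.4% fell in this comparison. List genes were named because a test called them, many of them this same test, so the count of 21 is no result of its own. Among the 9 genes, the difference between the times (48 h minus 24 h, log2) was -1.43 for Il11 and -1.84 for Lif. It was 0.48 for Il6st, 0.57 for Il6ra, 0.95 for Osmr, 0.83 for Lifr, 0.36 for Stat3 and 0.37 for Socs3. Among the other receptor genes and the proteases it was 0.23 for Il11ra1 and 0.20 for Adam17. Among the kinases, STATs and adaptors it was 0.37 for Jak2, 0.78 for Jak3, 1.13 for Stat2 and -0.29 for Ptpn11. For the negative regulators it was 0.94 for Cish, 0.29 for Pias1, 0.22 for Pias3 and 0.22 for Ptpn1, and -0.55 for Socs5, -0.47 for Socs6 and -0.26 for Socs7. For the STAT3 target genes it was -0.74 for Birc5, -1.22 for Ccnd1, -1.49 for Timp1 and -0.51 for Saa3, and 1.37 for Nnmt, 2.08 for Steap4, 0.59 for Hp and 2.09 for Lbp. The largest adjusted p among these differences was 0.0105, for Il11ra1. Groups of 3 libraries were too small for a formal test of single outlying libraries. Pairs of control libraries differed most within a group, with a chi-square of their counts per degree of freedom from 5.07 to 8.40. Within the 24 h and 48 h groups it lay between 2.31 and 3.72.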

How the results depend on the processing

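Under 15 alternatives, 9 of which leave out 1 library each, the log2 fold changes of the 9 genes gave 405 values for 27 comparisons. Of these, 388 kept their direction and side of the threshold, 12 lost a call, 5 gained one and 0 changed direction. The lost calls were those of Il6st at 24 h and Il11 at 48 h, and the gained ones that of Lif at 48 h. The number of all genes called at 24 h, 849, ranged from 518 without 24 h replicate 3 to 1475 without control replicate 3, and was 524 without 24 h replicate 1 and 1195 with no filter on low counts. Between 6 and 7 of the 9 genes were called at 24 h over all alternatives, and between 7 and 9 at 48 h. Whether replicate numbers pair the libraries is not stated. Deviations of libraries with the same number correlated between -0.067 and 0.103 and those with different numbers between -0.114 and 0.130. With 3 libraries per group this cannot exclude a shared replicate effect. With the replicate number as a block, 958 genes were called at 24 h, 6468 at 48 h and 6810 between the times, and 7, 9 and 8 of the 9 genes. The gained call under the block was that of Lif at 48 h (adjusted p = 0.0273). Among 1034 values for named list genes, 1005 kept direction and side of the threshold, 10 lost a call, 7 gained one, and 12 changed direction. Those 12 lay near 0, except that Nnmt at 24 h reached 0.31 (SE 0.21) without control replicate 1. With library size alone, Pias3 at 24 h was -0.0154 and Socs7 at 48 h 0.00423. Over all 15 alternatives, the log2 fold change at 24 h ranged from -0.0373 to 0.0898 for Jak2 and -0.0540 to 0.0435 for Pias3. It ranged from -0.0061 to 0.0485 for Birc5, -0.0145 to 0.0948 for Lbp and -0.21 to 0.31 for Nnmt. At 48 h that of Socs7 ranged from -0.0776 to 0.0982. Few reads limit Il6, Lcn2 and Steap4, at 4 to 11, 2 to 3 and 0 to 3 counts per control library.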
